A study of Mus musculus with 13 samples.

Results

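The genes described here encode the proteins of the mitochondrial ribosome, and were chosen by symbol: each row of the deposited table whose gene name is Mrpl or Mrps followed by a number and at most 1 letter from a to c. This gave 78 of the 53465 genes in the table, 49 with an Mrpl symbol and 29 with an Mrps symbol. The 5 pseudogene rows with similar symbols did not match and were left out. By the structure of the ribosome, rather than by symbol, 51 of the 78 belong to the large subunit, since Mrps30 and Mrps18a lie there, and 26 belong to the small subunit. Mrps36 carries a small-subunit symbol but encodes a component of the alpha-ketoglutarate dehydrogenase complex, and it is counted with neither subunit.

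RNA from bulk tissue was measured in 13 libraries by polyA-selected RNA-seq, 3 from untreated ovaries of wild-type (WT) C57BL/6 mice and 10 from untreated ovarian tumors labelled Myc;p53-/- EPO-GEMM, called MP here. EPO-GEMM stands for a mouse model made by electroporation: the left ovary of WT C57BL/6 females aged 8 to 12 weeks was injected with plasmids and given electrical pulses, and tumors were collected whole at endpoint. The MP plasmids carried Cas9 with a guide RNA against Trp53 and a transposon that overexpresses MYC. The alterations were thus introduced into somatic cells of the ovary and the fallopian tube, which the paper names as the target. Whole tumors hold host cells as well. The labels do not say that each library came from its own animal, so P values measure the spread between these libraries. In bulk tissue, fewer cells of a type and less RNA per cell cannot be told apart.

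Mitochondrial ribosomes translate the few proteins that the mitochondrial genome encodes, all of them subunits of the respiratory chain and ATP synthase. The ribosomal RNAs of this machine come from the mitochondrial genome, while its proteins are all encoded in the nucleus, made in the cytosol and imported. Some of these proteins descend from the bacterial ribosome, and others were added in the mitochondrial lineage. Pathogenic variants in several of the genes cause combined oxidative phosphorylation deficiency, and variants in Mrps22, among others, cause ovarian insufficiency.

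The libraries differed in ways that touch every value below. Total reads, worked back from the table, were 31445004 to 64013840 in WT and 3892690 to 19906507 in MP. The number after the letters IGO in the submitters' descriptions, whose meaning is not stated, splits the libraries into 3 library sets: set 1 holds the 3 WT ovaries and MP 1 to 3, set 2 holds MP 4 to 6, and set 3 holds MP 7 to 10. Only set 1 contains both groups. MP 2 stood apart, with 55.1% of its TPM (a level per length of gene, scaled to 1 total in every library) in 10 genes against 7.92 to 20.6% in the other libraries; its mitochondrial ribosomal RNAs mt-Rnr1 and mt-Rnr2 stood at 63531 and 71332 TPM. Trp53, the targeted gene, read 80.7, 85.0 and 85.4 TPM in WT and from 4.30 to 187 TPM in MP with a median of 14.0, and the library labelled MP 10 was the 1 tumor above all WT ovaries. Mouse Myc read 126 to 129 TPM in WT and 7.09 to 419 TPM in MP, and whether reads of the transposon's MYC are counted in this row was not tested. The ovarian label fit the WT libraries, where granulosa and theca markers summed to 28249 to 34120 TPM. In MP these markers summed to 11.9 to 2269 TPM and oocyte markers to 1.83 to 23.6 TPM, against 297 to 441 TPM in WT. Epithelial markers summed to 289 to 320 TPM in WT and 8.28 to 1201 TPM in MP, with Krt19 listed at 0 in 3 MP libraries, and skeletal muscle markers reached 1757 TPM in MP 1 against at most 9.59 TPM in WT. The part of these shifts in tissue content in the results below was not tested.

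Promoters were examined because nuclear genes for mitochondrial proteins are known to share binding motifs for a few transcription factors. A RefSeq promoter (build GRCm38.p6, 250 bases before to 50 bases after a start site) was matched to 69 of the 78 members. Those without one were Mrpl4, Mrpl13, Mrpl15, Mrpl19, Mrpl38, Mrpl54, Mrps28, Mrps34 and Mrps35. The 120 bases before the start site are shown for Mrpl12, Mrpl3 and Mrpl28, the 3 members called higher in MP that had a promoter, for Mrps22, whose every MP value lay above every WT value, and for Mrpl43, which was not higher. Capitals mark letters that match a searched motif on either strand.

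Mrpl12, chr11:120484517-120484636, plus strand: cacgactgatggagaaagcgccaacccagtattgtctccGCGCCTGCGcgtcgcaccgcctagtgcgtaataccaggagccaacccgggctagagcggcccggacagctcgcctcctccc
Mrpl3, chr9:105053148-105053267, plus strand: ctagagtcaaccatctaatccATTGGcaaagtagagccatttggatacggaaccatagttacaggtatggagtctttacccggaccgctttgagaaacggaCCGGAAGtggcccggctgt
Mrpl28, chr17:26123383-26123502, plus strand: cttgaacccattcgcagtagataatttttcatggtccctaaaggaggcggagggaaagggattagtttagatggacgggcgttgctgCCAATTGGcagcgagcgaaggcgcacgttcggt
Mrps22, chr9:98601680-98601799, minus strand: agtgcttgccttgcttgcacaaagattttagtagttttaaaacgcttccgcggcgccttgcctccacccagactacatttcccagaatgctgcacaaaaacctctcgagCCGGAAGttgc
Mrpl43, chr19:45006443-45006562, minus strand: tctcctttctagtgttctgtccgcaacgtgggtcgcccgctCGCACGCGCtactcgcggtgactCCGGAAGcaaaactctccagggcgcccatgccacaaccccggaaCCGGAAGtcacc

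The match in Mrpl12 is to the NRF1 motif (GCGCNTGCG), which starts 81 bases before the start site. Mrps22 and Mrpl3 hold the motif of ETS factors such as GABPA (CCGGAAG), 11 and 19 bases before the start. Mrpl3 also holds a CCAAT box, Mrpl28 holds a pair of overlapping ones, and Mrpl43 holds both an NRF1 match and 2 ETS matches. The 69 members have 75 promoters in the table, since a few have more than 1 start site. Counted over full 300-base promoters on both strands, the ETS motif was in 26 of these 75 (34.7%) and in 8.86% of all 32851 promoters. NRF1 was in 18 of 75 (24%) and in 6.31% of all promoters, and YY1 (AAGATGGC) was in 12 of 75 (16%) and in 2.75%. The E-box bound by MYC and MAX (CACGTG) was in 7 of 75 (9.33%) and in 7.15% of all promoters. Mrpl2 has 3 overlapping promoters that each count toward the 7, and by gene the E-box was in 5 of 69 members (7.25%). GC boxes (GGGCGG) were in 52.0% of the members' promoters and 35.7% of all, CCAAT boxes in 40.0% and 37.4%, and TATA boxes (TATAAA) in 6.67% and 13.6%. These are matches of letters, with no measure of binding.

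The first comparison asked which mitochondrial ribosomal protein genes differ between MP tumors and WT ovaries. Mrpl12, Mrpl15, Mrpl28, Mrpl19 and Mrpl3 were higher in MP, between 2.38 and 4.45 times the WT mean TPM. All 5 are large-subunit proteins of the bacterial type, 0 members were lower, and the small subunit gave no call. Of the 78 genes 77 were tested by limma on log2(TPM + 1), across the 17277 genes with at least 1 TPM in at least 3 libraries, with Benjamini-Hochberg adjustment and a threshold of 0.05. Each of the 77 had at least 11 reads in every library, so none passed this filter through MP alone. Across all tested genes 2.51% were higher and 14.3% were lower. At an unadjusted P under 0.05, 15 members were higher and 0 lower, against 972 and 4735 of all genes, and limma-voom on the reads gave 35 higher and 0 lower, where it called 10.9% of all genes higher (1879) and 4042 lower. Counts by limma-voom given below for other lists stand against that share.

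Mrpl12 is the stalk protein of the large subunit, where translation factors dock, and it also binds the mitochondrial RNA polymerase. It read 91.6, 105 and 82.7 TPM in WT 1, 2 and 3 and from 92.8 to 926 TPM in MP, with a median of 432 TPM. The lowest MP library, MP 9, lay within the WT range and the other 9 lay above it. The log2 fold change was 1.85 ± 0.56 (SE, 3 WT and 10 MP), with an adjusted P of 0.035 by limma.

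Mrpl15, a core protein of the large subunit, read 19.7, 19.4 and 18.5 TPM in WT and 30.0 to 130 TPM in MP, with a median of 61.2 TPM. The groups did not overlap. Its log2 fold change was 1.63 ± 0.41 (adjusted P = 0.014, limma). Mrpl28, another bacterial-type protein, read 138, 143 and 139 TPM in WT and 232 to 855 TPM in MP, with a median of 402 TPM. Here too every MP library was above every WT library, and the log2 fold change was 1.54 ± 0.39 (adjusted P = 0.014, limma). Mrpl28 and Mrpl12 had the highest mean TPM of all members over the 13 libraries.

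Mrpl19 read 22.6, 23.2 and 20.7 TPM in WT and 31.9 to 114 TPM in MP, with a median of 63.7 TPM. Its log2 fold change was 1.32 ± 0.40 (adjusted P = 0.033, limma), and 36.0% of its exon bases lie opposite exons of Gcfc2, whose reads cannot be told apart where the counting did not use strand. Mrpl3, a core protein whose variants cause oxidative phosphorylation deficiency, read 29.0, 33.1 and 26.0 TPM in WT and 45.6 to 119 TPM in MP, with a median of 67.5 TPM. Its log2 fold change was 1.17 ± 0.32 (adjusted P = 0.023, limma). For neither gene did the groups overlap.

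By gene coordinates (GRCm38), Mrpl12 lies at chr11:120484613-120489065, Mrpl15 at chr1:4773206-4785739, Mrpl28 at chr17:26123520-26126613, Mrpl19 at chr6:81957851-81965958 and Mrpl3 at chr9:105053239-105079888, each on a chromosome of its own. Mrpl15 and Mrpl28 share no exon base with another gene. Mrpl3 shares 3.7% and Mrpl12 shares 13.1%, the latter with the antisense gene Gm16755. Of the 45 members with no shared exon base, 2 were higher, with a median log2 fold change of 0.56.

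**Figure D1:**
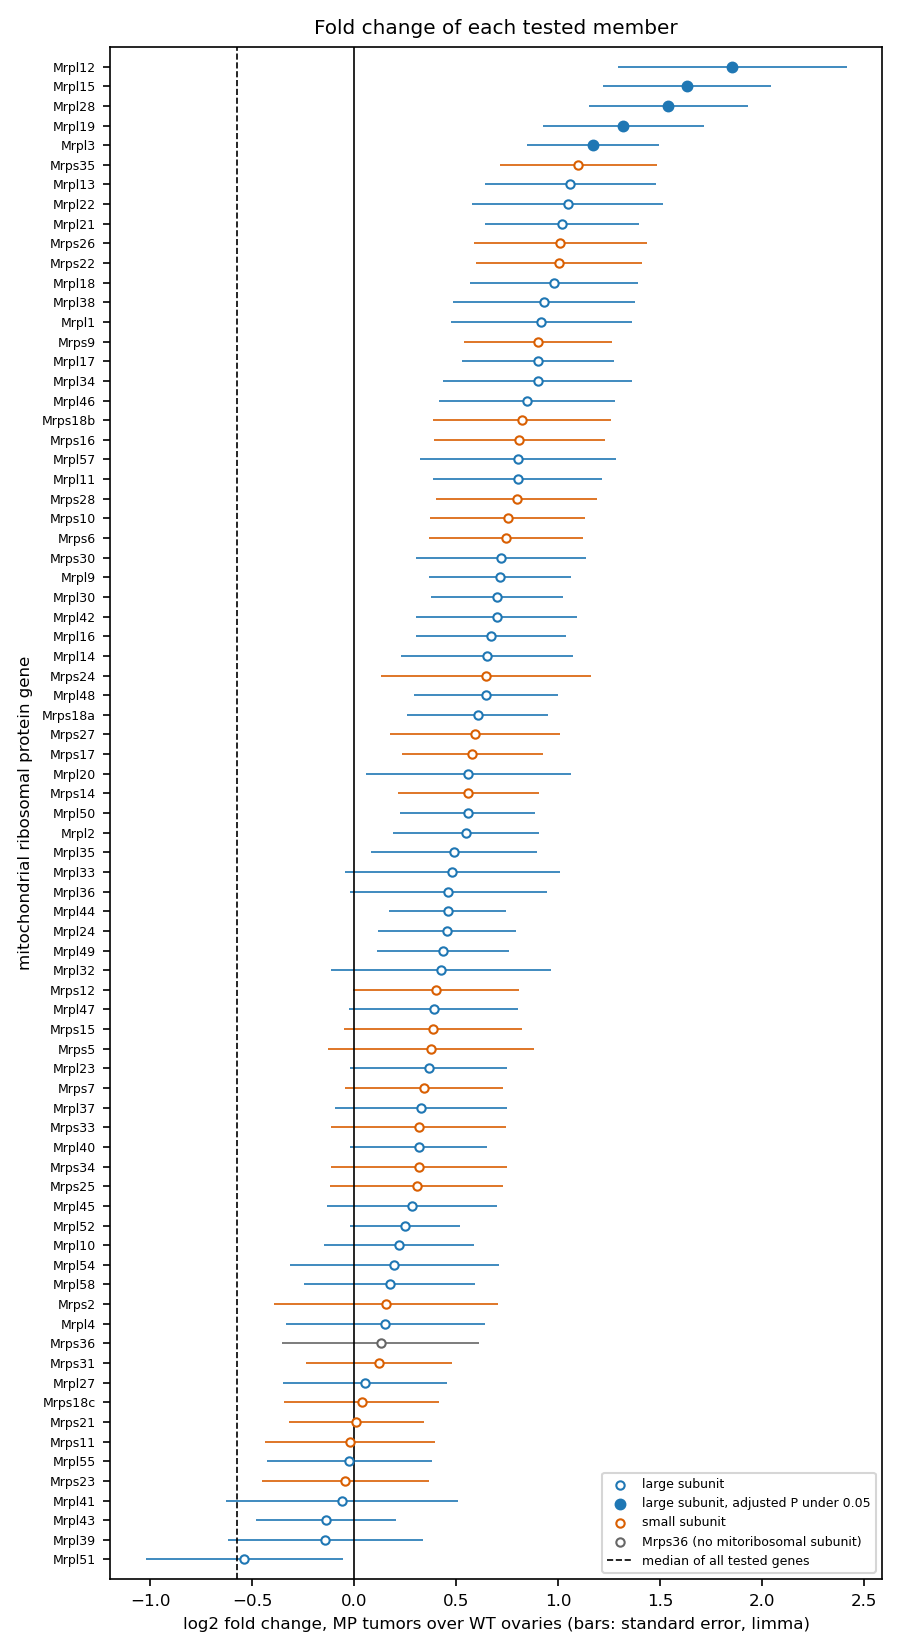
Log2 fold change (x axis) of each of the 77 tested members (y axis), MP tumors over WT ovaries, with limma standard errors as bars; color gives the subunit and filled points have an adjusted P under 0.05. The filled points are Mrpl12, Mrpl15, Mrpl28, Mrpl19 and Mrpl3, and all points lie right of the dashed line at −0.58, the median of all tested genes.

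The members lay higher as a group than genes at large, in values that are a description and carry no test. Their median log2 fold change was 0.56, while the median over all 17277 tested genes was −0.58. The sign was positive for 70 of 77 members and for 30.1% of all genes, and each of the 77 lay above the median of all genes. This median moves with the scaling of the libraries: it was −0.02 under median-of-ratios scaling and 0.08 under quantile normalization. The members' median stayed positive under both, at 1.26 and 1.00, with 13 and 28 members higher and 0 lower. Mrpl12 was not among the 13, with an adjusted P of 0.0505 (limma) and a log2 fold change of 2.57 under median-of-ratios scaling, and it also missed the threshold without the filter on low values (adjusted P = 0.0508, limma). It was called in 8 of the 10 settings that kept all libraries, and the other 4 genes in 10 of 10. Among these settings, library set as covariate and a replicate block take the difference from WT 1 to 3 and MP 1 to 3 alone. The members' median in both was 0.76, the same as in library set 1, so they repeat that comparison. The split of calls over all genes moved as well, from 433 higher and 2463 lower to 1274 and 1897 under median-of-ratios scaling, to 1904 and 2091 under quantile normalization, and to 1879 and 4042 under limma-voom. Shorter genes had higher fold changes across all tested genes (Pearson r = −0.27 between log2 fold change and log2 length, across 17277 genes, which are not independent). The members' median length was 2255 bases against 3516 over all. With the length trend removed 7 members were higher and their median was 0.57. Over all genes that setting gave 567 higher and 2708 lower, with a median of −0.51.

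**Figure D2:**
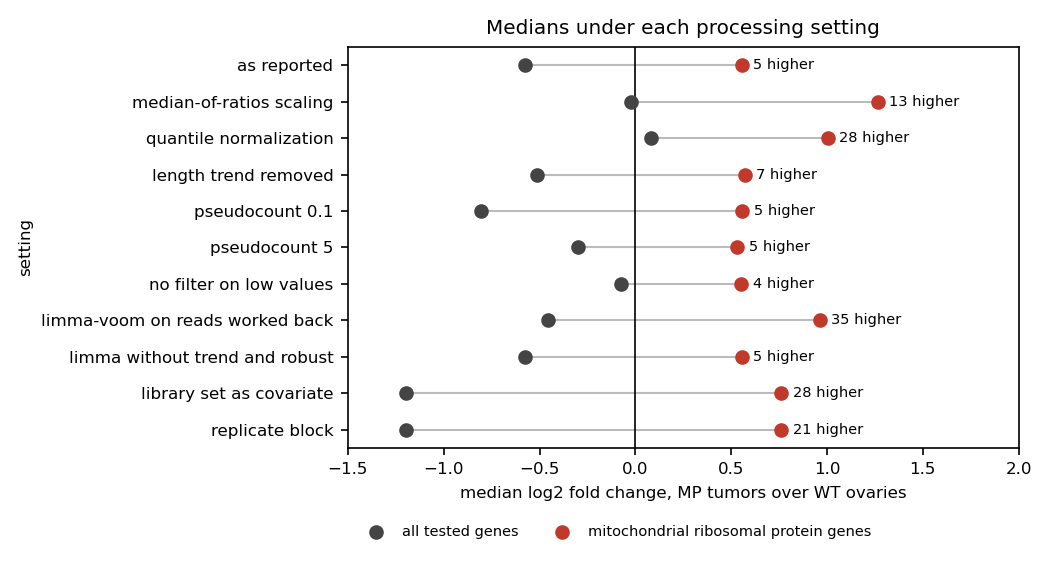
Median log2 fold change (x axis), MP tumors over WT ovaries, of the mitochondrial ribosomal protein genes (red) and of all tested genes (gray) under each processing setting (y axis), with the number of members called higher beside the red points. The members' median lies between 0.53 and 1.26 and right of the gray point in each setting shown.

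In 11 of 77 members every MP library lay above every WT library, while 3.02% of all tested genes did so. These were Mrpl3, Mrpl13, Mrpl15, Mrpl17, Mrpl18, Mrpl19, Mrpl21, Mrpl28 and Mrpl48 of the large subunit and Mrps22 and Mrps35 of the small. In 46 members at least 8 of the 10 MP libraries were above all WT ovaries, against 10.9% of all tested genes. Mean TPM was higher in MP for 75 of the 77, against 38.4% of all tested genes.

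The calls depended on single libraries. Leaving out WT 1, WT 2 or WT 3 left 0 members higher, as the calls over all genes fell to between 65 and 107 higher. Leaving out MP 1, MP 6, MP 7 or MP 8 left 3, where 336 to 363 of all genes were higher, and leaving out MP 2 gave 10, where 637 were. Without the library labelled MP 10, 5 members were higher, where 472 of all genes were. Over these fits the members' median log2 fold change stayed between 0.48 and 0.63. In the largest adjusted P over the fits without 1 library, Mrpl28 reached 0.088, Mrpl15 0.093 and Mrpl3, Mrpl12 and Mrpl19 0.154 to 0.164, with log2 fold changes of at least 1.08.

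Within the large subunit, 50 members were tested, 5 were higher and the median log2 fold change was 0.56. The bacterial-type proteins of both subunits gave 5 of 46 higher with a median of 0.61, 12 higher at an unadjusted P under 0.05 and 23 by limma-voom. The mitochondria-specific ones gave 0 of 30 with a median of 0.38, 3 higher at an unadjusted P under 0.05 and 12 by limma-voom. This difference between the lists was not tested.

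The stalk was represented by Mrpl12, Mrpl11 and Mrpl10, with a median log2 fold change of 0.80. Mrpl11, at the base of the stalk, read 59.0 to 65.7 TPM in WT and 59.1 to 244 TPM in MP with a median of 110 TPM, a log2 fold change of 0.80 ± 0.42 (adjusted P = 0.188, limma). Mrpl10, which holds the Mrpl12 copies, differed little in mean, with 116 to 118 TPM in WT and 62.6 to 251 TPM in MP (log2 fold change 0.22 ± 0.37, adjusted P = 0.688, limma). Of the 10 tumors, 8 lay above all WT ovaries for Mrpl10 and 9 for Mrpl12.

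The central protuberance, the crown that faces the small subunit, had 6 members, 0 calls and a median of 0.75, with 1 higher at an unadjusted P under 0.05 and 3 by limma-voom. The polypeptide exit had 8 members, 0 calls and a median of 0.42, with 2 higher unadjusted and 3 by limma-voom. Mrpl45, which anchors the large subunit to the inner membrane beside the exit, read 62.4 to 70.9 TPM in WT and 34.2 to 165 TPM in MP (log2 fold change 0.28 ± 0.42, adjusted P = 0.642, limma). Mrpl23, also at the exit, had the lowest level of the tested members, 4.84, 5.71 and 5.10 TPM in WT and 2.91 to 11.3 TPM in MP.

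At the low end of the large subunit were 4 mitochondria-specific proteins. Mrpl51 read 43.1, 43.6 and 37.3 TPM in WT and 6.50 to 47.8 TPM in MP, with a median of 33.6 TPM. Its log2 fold change was the lowest of all members, −0.54 ± 0.48 (adjusted P = 0.439, limma), and its lowest MP value was in MP 2. Mrpl43 read 115 to 125 TPM in WT and 45.3 to 152 TPM in MP (log2 fold change −0.14 ± 0.34), and Mrpl39 read 80.1 to 88.9 TPM in WT and 21.8 to 204 TPM in MP (−0.14 ± 0.48). Mrpl41 had the largest spread among tumors, an SD of 1.04 on the log2 scale, with 132 to 156 TPM in WT and 61.5 to 586 TPM in MP (log2 fold change −0.06 ± 0.57). In these 4 genes the MP range included the WT range.

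Mrpl52 had the smallest spread among tumors of the tested members, an SD of 0.32 on the log2 scale, with 131 to 139 TPM in WT and 109 to 236 TPM in MP. Mrpl53 was the 1 member not tested. It was listed at 0 in all WT ovaries and 7 tumors and reached 0.725 TPM in MP 4, and 88.0% of its exon bases are shared with Gm42688 on the same strand and Ccdc142os on the other. Whether this sharing sets its values was not tested. Over the 77 members the median SD on the log2 scale was 0.09 among WT ovaries and 0.66 among MP tumors, against 0.16 and 0.86 over all tested genes.

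Within the small subunit, 26 members were tested, 0 were called in either direction and the median log2 fold change was 0.48. At an unadjusted P under 0.05, 4 were higher and 0 lower, and limma-voom called 11 higher. Mrps35, a mitochondria-specific protein, read 15.3, 15.4 and 16.9 TPM in WT and 18.1 to 64.5 TPM in MP with a median of 34.3 TPM (log2 fold change 1.10 ± 0.39, adjusted P = 0.062, limma). Mrps22, mutated in some cases of ovarian insufficiency, read 32.5, 36.3 and 28.4 TPM in WT and 37.1 to 123 TPM in MP with a median of 67.4 TPM (1.00 ± 0.41, adjusted P = 0.0995). The WT and MP values of both genes did not overlap, although neither passed the threshold.

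Mrps26 read 23 to 24.9 TPM in WT and 18.2 to 95.9 TPM in MP (log2 fold change 1.01 ± 0.42, adjusted P = 0.110, limma), and MP 2 alone lay below WT. Mrps9 read 29.3 to 31.5 TPM in WT and 31.4 to 102 TPM in MP (0.90 ± 0.36, adjusted P = 0.098). Mrps12, the protein of the decoding center, read 109 to 130 TPM in WT and 58.0 to 248 TPM in MP (0.40 ± 0.41, adjusted P = 0.494). Mrps28, the most abundant small-subunit gene with Mrps21 by mean TPM, read 88.8 to 121 TPM in WT and 98.5 to 414 TPM in MP (0.80 ± 0.40).

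The smallest differences in the small subunit were in Mrps21, Mrps18c, Mrps11 and Mrps23, with log2 fold changes of 0.01 ± 0.33, 0.04 ± 0.38, −0.02 ± 0.42 and −0.04 ± 0.41. Their MP values spanned the WT values on both sides, as for Mrps21 with 150 to 192 TPM in WT and 90.6 to 270 TPM in MP. Mrps34 and Mrps10 had the lowest mean TPM of the subunit, and 77.8% of the exon bases of Mrps34 are shared with Mapk8ip3 and Nme3.

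The S18 protein exists in 3 forms that occupy different places, Mrps18a in the large subunit and Mrps18b and Mrps18c in the small. Their log2 fold changes were 0.60 ± 0.35, 0.82 ± 0.44 and 0.04 ± 0.38, with 0 calls, 0 at an unadjusted P under 0.05 and 2 by limma-voom. Mrps18b read 17.7 to 19 TPM in WT and 9.05 to 46.4 TPM in MP, where MP 2 alone was below WT. Mrps30 of the large subunit read 20.1 to 25.2 TPM in WT and 15.1 to 59.5 TPM in MP (0.72 ± 0.42). Mrps36, outside the ribosome, read 9.50 to 12.1 TPM in WT and 4.38 to 22.6 TPM in MP (0.13 ± 0.48).

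Among the 12 genes whose variants cause combined oxidative phosphorylation deficiency, Mrpl3 and Mrpl12 were higher and the median was 0.51.

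**Figure D3:**
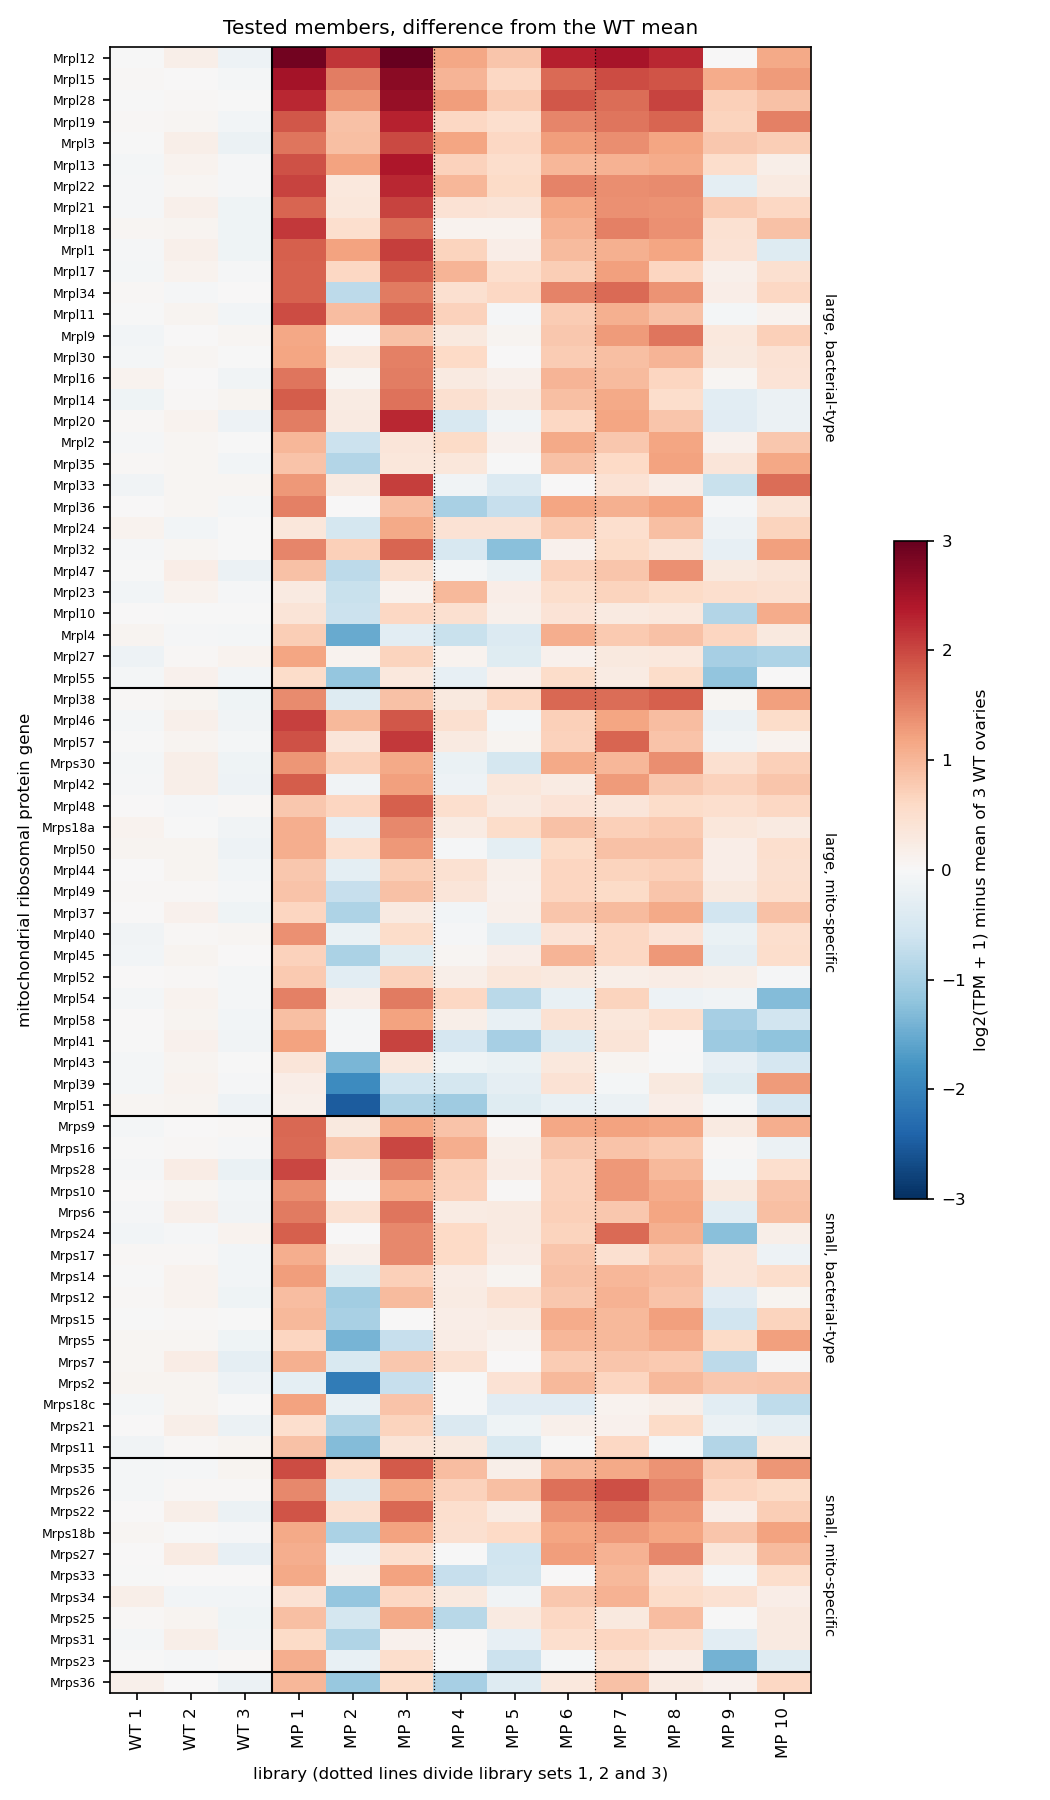
Log2(TPM + 1) of each tested member (y axis) in each library (x axis) minus its mean over the 3 WT ovaries, by subunit and origin, with genes sorted by log2 fold change within each block; the color scale ends at 3 in either direction. MP 1, MP 3, MP 7 and MP 8 are red in most genes, while MP 2 and MP 9 are blue in many.

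The tumors differed from each other in how many members rose above the WT ovaries. Of the 78 members, 77 were above all WT values in MP 1, 74 in MP 7, 73 in MP 8, 69 in each of MP 3 and MP 6, 59 in MP 10, 51 in MP 4, 42 in MP 5, 39 in MP 9 and 30 in MP 2. In MP 2, 36 members were below all WT values, and in MP 9, 29 were. The share of all tested genes above or below WT was not counted per tumor, and genes at large differed between libraries. The median of all tested genes was 14.7 to 16.2 TPM in WT, 2.35 TPM in MP 2, 4.41 TPM in MP 1 and 14.7 TPM in MP 9. By rank among tested genes the median member stood at the 92.9 percentile in MP 2 and the 80.0 percentile in MP 9.

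The summed TPM of the 78 members was 5225, 5558 and 5057 in WT 1, 2 and 3. In MP it was 13792 in MP 1, 13536 in MP 3, 10451 in MP 7, 10139 in MP 8, 9383 in MP 6, 7013 in MP 10, 6489 in MP 4, 5572 in MP 5, 5434 in MP 2 and 5117 in MP 9. Of the 10 tumors, 2 lay within the WT range and 8 above it, with MP 5 just above the highest WT ovary. The median member stood at the 81.3 to 82.4 percentile of the tested genes in WT and at the 80.0 to 93.8 percentile in MP, 9 tumors above the WT range and MP 9 below it.

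The large subunit took a larger share of this sum in the tumors, a sum in which the most abundant members weigh most. In MP 4, Mrpl12 and Mrpl28 read 207 and 335 TPM of 4590 TPM for the large subunit. Their WT values were 82.7 to 105 and 138 to 143 TPM. Per gene the subunits lay closer, with median log2 fold changes of 0.56 (large) and 0.48 (small). Whether the ratio differs without these genes was not tested. The summed TPM of the large subunit over that of the small was 2.31 to 2.41 in WT and 2.42 to 3.42 in MP, with the values of MP 3 and MP 2 the highest at 3.42 and 3.32. All 10 tumors lay above the WT ovaries, the nearest being MP 4. The 3 MP libraries of set 1 ranged from 2.77 to 3.42 and the other 7 from 2.42 to 2.75, so the ratio moved with library set.

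Against the ribosome of the cytosol the order turned. The summed TPM of the 78 members over that of the 83 cytosolic ribosomal protein genes was 0.069 to 0.078 in WT and 0.034 to 0.065 in MP, and all 10 tumors were below all WT ovaries. The cytosolic genes gave 41 higher and 1 lower of 80 tested, with a median log2 fold change of 1.07. The median was 1.79 with 36 higher under median-of-ratios scaling, limma-voom gave 67 higher, and library set 1 gave 52 higher.

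**Figure D4:**
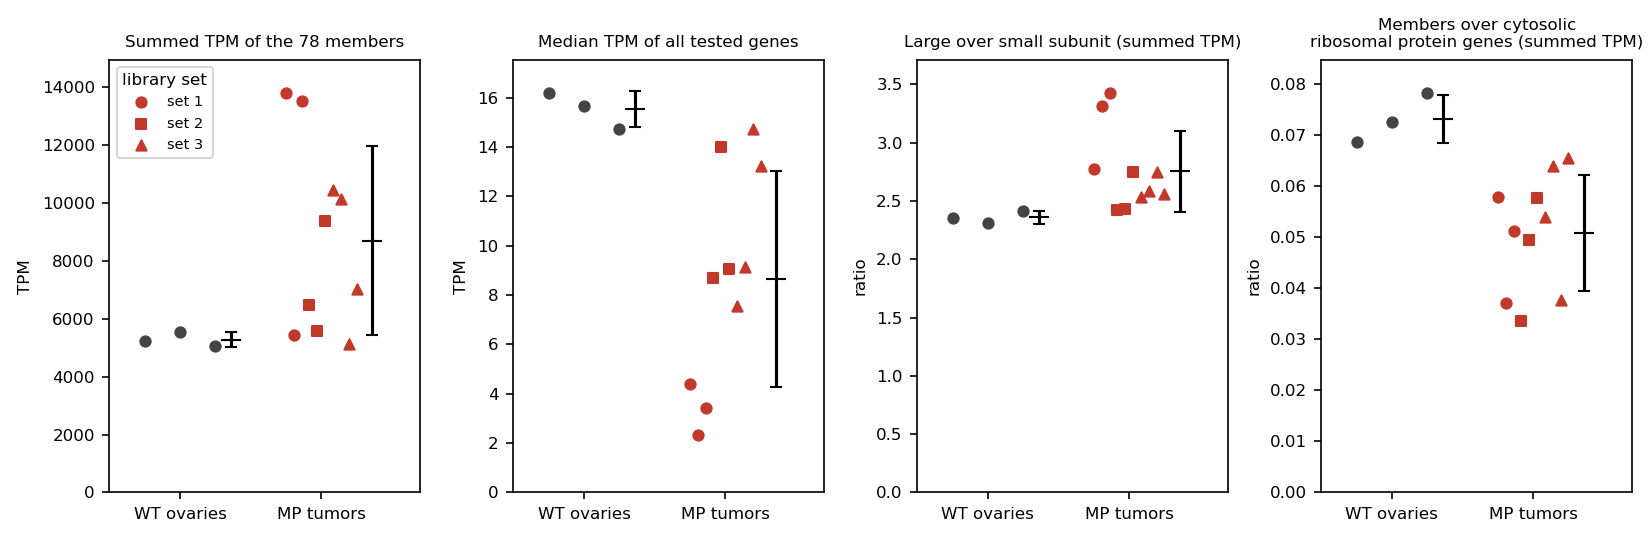
Each point is 1 library, with shape giving the library set and the black mark and bar giving the group mean ± SD (3 WT ovaries, 10 MP tumors); the panels show, in TPM, the summed level of the 78 members and the median of all tested genes, and, as ratios, large over small subunit and members over cytosolic ribosomal protein genes. The ratio of large to small subunit is higher and the ratio to cytosolic genes lower in every MP tumor, and the median of all genes is lowest in MP 1, 2 and 3.

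Library set 1 allowed the same comparison among libraries that share that number, 3 WT ovaries against MP 1, 2 and 3. It gave 26 members higher, 21 of the large subunit and 5 of the small, and 0 lower. The 26 include the 5 higher in the comparison of all libraries, with which it shares the WT ovaries and the 3 tumors. Of 15239 genes tested, 6.84% were higher and 62.4% were lower, and the median of all genes was −1.44 where that of the members was 0.76. No member was lower at an unadjusted P under 0.05.

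Mrpl12 read 692, 415 and 926 TPM in MP 1, 2 and 3, all above its WT values (log2 fold change 2.78, adjusted P = 0.00036, limma). Mrpl15 read 113, 57.3 and 130 TPM (2.24, adjusted P = 0.00098), and Mrpl28 read 677, 354 and 855 TPM (2.07, adjusted P = 0.0022). In each of the 3 genes MP 2 was the lowest of these tumors. Of the small subunit, Mrps6, Mrps9, Mrps16, Mrps22 and Mrps35 were higher, with log2 fold changes of 1.06 to 1.51. Mrps22 read 123, 45.0 and 108 TPM (1.36, adjusted P = 0.022) and Mrps35 read 64.5, 23.2 and 59.3 TPM (1.44, adjusted P = 0.016).

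Within this set the number of calls turned on MP 2 and on the scaling. Without MP 2, 65 members were higher and 0 lower, where 1875 of all 14990 genes were higher and 9419 lower. Without MP 1, 15 members were higher and 4 lower, where 828 of all 14939 genes were higher and 10269 lower. Leaving out MP 3 left 13, with 683 higher and 9283 lower over all genes. Leaving out WT 1, WT 2 or WT 3 left 10, 12 or 11, with 613 to 668 higher and 5943 to 6131 lower over all genes. Median-of-ratios scaling gave 74 higher and quantile normalization 73, with all-gene medians of −0.25 and 0.03 and splits of 4265 higher to 5632 lower and 4882 to 4701 over all genes. The members' median, 0.76 as reported, was 0.42 with the length trend removed, where 57 of 77 members were positive, 0.48 without MP 1 and 1.19 without MP 2.

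The tumors of set 1 were then set against the tumors of sets 2 and 3, since every WT ovary is in set 1. Mrpl1, Mrpl11, Mrpl13, Mrpl41, Mrpl46 and Mrpl54 were higher in set 1, and Mrps2 and Mrps5 were lower. Of 15833 genes tested, 1.42% were higher and 33.6% were lower, and the medians were 0.41 for the members and −0.95 for all genes. The members' median was 0.09 without MP 1, 0.18 without MP 3, 0.77 without MP 2, 0.16 with the length trend removed, 1.71 under median-of-ratios scaling and 0.97 under quantile normalization. The 6 higher genes all belong to the large subunit and the 2 lower to the small.

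Mrpl41 read 331, 139 and 586 TPM in MP 1, 2 and 3 and 61.5 to 188 TPM in the other 7 tumors (log2 fold change 1.6 ± 0.46, adjusted P = 0.016, limma). Mrps2, a bacterial-type protein of the small subunit, read 46.0, 12.5 and 34.6 TPM in set 1 and 56.3 to 112 TPM in the others (−1.69 ± 0.40, adjusted P = 0.0053), with no overlap. Its WT values, 59.7, 60.3 and 50.7 TPM, were also above those of the set 1 tumors. Mrps5 read 33.7, 7.50 and 12.7 TPM in set 1 and 22.8 to 50.6 TPM in the others (−1.21 ± 0.43, adjusted P = 0.043). Without MP 1 or MP 3 no member was higher, without MP 5 or MP 9 2 were, without MP 2 15 were and without MP 7 10 were. Over all genes the higher calls in these fits numbered 95 without MP 1, 37 without MP 3, 157 without MP 5, 174 without MP 9, 351 without MP 2 and 280 without MP 7. Without MP 1, 3 members were lower, where 4855 of all genes were. Without any 1 of MP 2, MP 3 and MP 6 to 10, 1 member was lower, where 2984 to 5670 of all genes were. Under median-of-ratios scaling 54 were higher and 0 lower, and under quantile normalization 34 and 1, with splits of 2401 to 1761 and 1707 to 1434 over all genes. Library set and any difference in the tumors that goes with it cannot be told apart.

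The rest of the mitochondrial translation machinery was read from lists of known genes, in the comparison of all libraries. Of 5 mitochondrial ribosomal proteins with other symbols, 1 was higher and the median log2 fold change was 1.25. That gene was Ptcd3, a small-subunit protein, with 34.3, 37.6 and 29.0 TPM in WT and 48.4 to 128 TPM in MP (1.28 ± 0.34, adjusted P = 0.017, limma). Gadd45gip1, which lies at the exit of the large subunit, read 23.9 to 26.5 TPM in WT and 29.8 to 111 TPM in MP (1.25 ± 0.42, adjusted P = 0.055). In both genes all 10 tumors were above all WT ovaries. Dap3 and Aurkaip1, both of the small subunit, had log2 fold changes of 0.66 ± 0.33 and 0.32 ± 0.32.

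Of 26 assembly factors, 2 were higher and 0 lower, with a median of 0.20, and limma-voom gave 7 higher and 0 lower. Noa1, a GTPase for assembly of the small subunit, read 26.2, 28.4 and 25.0 TPM in WT and 43.4 to 165 TPM in MP (log2 fold change 1.78 ± 0.44, adjusted P = 0.013, limma). Fastkd2, which binds the large ribosomal RNA, read 21.2, 23 and 18 TPM in WT and 27.9 to 116 TPM in MP (1.41 ± 0.44, adjusted P = 0.040). At the other end, Nsun4, a methyltransferase of the small ribosomal RNA, read 16.9 to 17.5 TPM in WT and 4.55 to 11.3 TPM in MP (−1.06 ± 0.37, adjusted P = 0.060), all 10 tumors below WT. Mterf3 had a log2 fold change of −0.55 ± 0.35 (adjusted P = 0.274).

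Translation factors gave 0 calls in 15 tested genes, with a median of 0.03, 1 higher at an unadjusted P under 0.05 and 1 higher by limma-voom. Guf1 and Mtfmt had the highest statistics (log2 fold changes 1.08 ± 0.44 and 0.44 ± 0.38), and Oxa1l, the insertase that receives new proteins at the inner membrane, and Mtif3 the lowest (−0.70 ± 0.58 and −0.36 ± 0.38). Mitochondrial aminoacyl-tRNA synthetases gave 2 higher and 0 lower of 17, with a median of 0.38. Yars2, which charges tyrosine, read 26.2, 27 and 20.8 TPM in WT and 42.4 to 151 TPM in MP (1.72 ± 0.40, adjusted P = 0.0090, limma). Mars2, for methionine, read 3.81 to 5.43 TPM in WT and 7.46 to 23.3 TPM in MP (1.43 ± 0.44, adjusted P = 0.038). Neither overlapped between groups, while Ears2 and Fars2 had log2 fold changes of −0.54 ± 0.52 and −0.50 ± 0.38 and no tumor above all WT ovaries.

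Of 14 regulators of mitochondrial transcription and biogenesis none passed, with a median of 0.08, 1 higher and 1 lower at an unadjusted P under 0.05 and 2 higher by limma-voom. Tefm, the mitochondrial elongation factor, read 29.9 to 36.7 TPM in WT and 19.4 to 214 TPM in MP (1.19 ± 0.53, adjusted P = 0.130, limma). Ppargc1a, a coactivator of mitochondrial genes, read 1.38 to 1.65 TPM in WT and 0 to 1.83 TPM in MP (−0.86 ± 0.30, adjusted P = 0.061), and its relative Ppargc1b had a log2 fold change of 1.03 ± 0.64. Yy1, the factor of the YY1 motif, was at −0.48 ± 0.35 (adjusted P = 0.345). The 9 ovarian insufficiency genes of mitochondrial translation and maintenance gave 0 calls and a median of 0.53, with 2 higher at an unadjusted P under 0.05 and 2 by limma-voom. Of these, Clpp, a matrix protease, was higher in all 10 tumors than in WT (0.83 ± 0.34, adjusted P = 0.101), Aars2 was at −0.42 ± 0.73 and Rmnd1 at 0.00 ± 0.41.

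In library set 1, where 6.84% of all genes were higher and 62.4% lower with a median of −1.44, the same lists gave other counts. The regulators gave 2 higher and 7 lower of 14 with a median of −0.58, and the synthetases 2 higher and 5 lower of 17 with a median of −0.03. Assembly factors gave 4 higher and 2 lower of 26 with a median of −0.28, and translation factors 1 higher and 3 lower of 15 with a median of −0.28. The ovarian insufficiency genes gave 2 higher and 1 lower of 9 with a median of 0.14, and the ribosomal proteins with other symbols 3 higher and 0 lower of 5 with a median of 1.20.

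Transcripts of the respiratory chain were read as well. The nuclear-encoded subunits of the respiratory chain gave 1 higher and 1 lower of 85 tested, with a median log2 fold change of 0.23. Other settings gave 3 higher and 0 lower with a median of 0.94 (median-of-ratios scaling), 7 and 1 (quantile normalization) and 10 and 1 (limma-voom), and library set 1 gave 21 higher and 3 lower of 84. Of the 13 protein genes of the mitochondrial genome, 7 were tested, and the others reached 1 TPM in fewer than 3 libraries. Among the 7, 0 were higher and 3 lower, with a median of −1.71. The median was −0.99 with 1 lower under median-of-ratios scaling, limma-voom gave 5 lower, and library set 1 gave 7 lower of 7 with a median of −3.35. Summed over all 13 such genes, the level was 61719 to 68386 TPM in WT and 7244 to 45140 TPM in MP, lowest in MP 1, 2 and 3.

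Proliferation markers summed to 257 to 449 TPM in WT and 326 to 1199 TPM in MP, with 2 of 6 higher and 0 lower. Fibroblast markers summed to 1416 to 2404 TPM in WT and 89.0 to 4718 TPM in MP, smooth muscle markers to 1483 to 1729 and 55.0 to 1291 TPM, endothelial markers to 344 to 424 and 8.09 to 218 TPM, and leukocyte markers to 140 to 293 and 31.2 to 223 TPM. The part of these cell types in the members' levels was not tested.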

How the data were processed

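Total RNA was polyA-selected, and 76-base single-end reads were sequenced on an Illumina HiSeq instrument. The submitters' processing notes name FastQC 0.11.5, Trimmomatic 0.36, STAR 2.5.3a, featureCounts 1.6.3 and mm10/GRCm38, whereas the extract protocol names HTSeq, RPKM and a human build; gene IDs and coordinates are those of mouse GRCm38. Strand settings are not given in the sources used here. The authors deposited TPM values per gene in 1 table of 13 libraries.

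Multiplying each TPM by its gene's length gave whole steps in 100% of values (tolerance 0.02 reads), from which reads were worked back; totals are given with the results, and precision is lowest in the shallow MP libraries. Chi-square per degree of freedom between libraries of a group was at least 25.8, so none was a repeat deposit. Log2(TPM + 1) was tested by limma 3.58.1 (trend, robust; R 4.3.3), 2-sided, for genes with at least 1 TPM in at least 3 libraries of the fit, with Benjamini-Hochberg adjustment over all genes tested. The code was tested on simulated data, where it recovered 158 of 200 changed genes (79%) and called 3 unchanged ones. A gene that was not called is therefore not shown to be unchanged. Members and gene lists were chosen with earlier results of these data known. Genes named singly were, in each subunit, the 4 with the largest and the 4 with the smallest statistic, the 2 with the highest and the 2 with the lowest mean TPM, the 2 largest and 2 smallest spreads among tumors over all members, genes of known special role, the S18 paralogs, the 2 extremes of each other list, and Trp53 and Myc. Other genes named were chosen after their values were seen. Alternatives were pseudocounts of 0.1 and 5, no filter, median-of-ratios and quantile scaling, removal of the length trend, limma-voom on reads, no trend or robust step, library set as covariate, a replicate block, and leaving out each library. Promoters and start sites came from RefSeq, and exon overlaps from GENCODE M21. Analysis used Python 3.11.15, pandas 2.3.3, numpy 2.4.6 and matplotlib 3.10.9.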

Additional observations from a re-analysis of the deposited data

Results flagged for a closer look

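In 3 of the 37 sets of 10 tumor values tested, 1 tumor lay far from the others, where 1.85 would be flagged by chance at 1 in 20. Mrpl39 read 204 TPM in the library labelled MP 10, and the next tumor read 113 TPM. Mrpl41 read 586 TPM in MP 3, and the next read 331 TPM. Trp53 read 187 TPM in the library labelled MP 10, and the next read 26.0 TPM.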

How the results depend on the processing

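The number of members higher in MP moved from 5 to 13 under median-of-ratios scaling, 28 under quantile normalization, 35 under limma-voom, 28 with library set as covariate (894 higher and 8534 lower over all genes) and 21 with the replicate block (1087 and 9803), and to between 0 and 10 when 1 library was left out; none was lower. The members' median became 1.26 under median-of-ratios scaling, and its distance from the all-gene median became 0.62 without a filter and 1.96 with the set covariate or the replicate block. Both of these fits take the difference between groups from the libraries of set 1 alone, since only there do WT and MP share a set or a number. In set 1 the count became 74 and 73 under the 2 scalings, with medians of 2.30 and 1.72, and lay between 10 and 65 (0 and 4 lower) without 1 library. Set 1 tumors against the others gave 54, 34 and 10 higher and 0, 1 and 1 lower under median-of-ratios, quantile and length settings. Over all genes the length setting gave 196 higher and 4300 lower. Without 1 library the members gave 0 to 15 higher and 1 to 3 lower. The cause was not tested. Deviations of same-numbered WT and MP libraries correlated at −0.049, 0.019 and −0.037, so the replicate block joins libraries that share only a number. Of 1265 values for 55 named genes, 1053 kept direction and side of the threshold, 76 called under neither setting changed sign, 51 fell below the threshold, 85 passed it, and no called value reversed. Depth limits the shallow MP libraries most, down to 11 reads for a member.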
